A study of Mus musculus with 19 samples.

Results

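The 10 genes described here encode enzymes and a receptor of leukotriene, lipoxygenase and prostaglandin metabolism: Alox5, Alox5ap, Lta4h, Ltc4s, Ltb4r1, Alox12, Alox15, Ptgs1, Ptgs2 and Ptges. They were taken by name, as every non-control probe that the scanner files name for one of them, which gave 15 of the 41174 probes on the array. A gene is given by its main probe, the one with the highest mean signal over all samples. The main probes of 8 of the 10 genes were bright enough to be tested, and those of Ptgs2 and Ptges were not well above background, as the scanner software calls it, in any sample.

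Leukocyte RNA from whole blood of male DBA/2 and B6 mice was hybridized to single-color arrays after injection of CAWS, a water-soluble extract of Candida albicans that induces arteritis in mice. Each mouse received CAWS intraperitoneally on consecutive days, and 0 w is right after the last injection, so that every group described here, 0 w included, had been given CAWS and no array of an untreated mouse enters. Both strains were sampled then and in weeks 2, 4, 8 and 9 after it, written 2 w to 9 w, with 2 samples a group, except that B6 mice had a single sample in week 2 and another in week 9. Per the paper, RNA of individual mice was hybridized, later samples came from survivors, whose number had fallen strongly in the DBA/2 strain, and age is given only as a range shared by all mice.

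Arachidonic acid released from membranes by phospholipases is the shared substrate of these enzymes. The lipoxygenase of Alox5, presented with its substrate by the FLAP protein of Alox5ap, makes leukotriene A4, which the hydrolase of Lta4h turns into leukotriene B4, a neutrophil attractant read by the receptor of Ltb4r1, and which the synthase of Ltc4s conjugates with glutathione to the cysteinyl leukotrienes. Alox12 is the lipoxygenase of platelets, and Alox15 a related lipoxygenase of eosinophils and of some tissue macrophages. Ptgs1 and Ptgs2 encode the constitutive and the inducible cyclooxygenase, of which platelets carry the first, and Ptges an inducible synthase of prostaglandin E2. In blood the leukotriene enzymes are best known from neutrophils, monocytes, eosinophils and basophils.

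Values are log2 processed signals minus the 75th percentile of the same array, so that 0 is the level of a bright probe and a difference of 1 is a doubling. A probe's hybridization can differ between the strains, which was not tested. Strain differences in level are therefore differences of signal. From 33.9% to 51.4% of the 43379 spots of an array were well above background. Some libraries stood apart. The mean level of 11 hepatocyte markers was between 0.77 and 0.79 in B6 mice at 0 w and between 0.18 and 0.22 at 8 w, and between -6.12 and -4.09 in the other samples. The mean level of 12 platelet markers was 2.44 in the single B6 sample at 2 w, below the lowest of all others, 3.41. Comparisons against B6 0 w cannot be made without the libraries that carry hepatocyte RNA, whereas the changes within DBA/2 mice and the strain comparison in week 4 do not use them. The part of that RNA in the results was not tested. Replicate 1 and replicate 2 of every group with 2 samples were scanned on different days. The lone B6 samples of 2 w and 9 w were each scanned on 1 of these days. At 0 w, 4 w and 8 w no slide held samples of both strains from these weeks, so that strain and slide cannot be told apart in the strain comparisons. Within DBA/2 mice the 9 w samples lay on other slides than all earlier ones, so that slide and week cannot be told apart for 9 w.

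After CAWS, 6 of the 8 tested genes rose in DBA/2 mice, taking 4 w and 8 w together against 0 w, and none fell at an adjusted p of 0.05 by limma. Among all tested probes 22.9% changed in this comparison and 9.8% rose. In B6 mice 6 of the 8 changed as well, against 15% of all tested probes. Of these, Alox5, Alox5ap, Ltb4r1 and Ptgs1 rose, against 7.28% of all probes, while Ltc4s and Alox15 fell, against 7.73%. The median change of the 8 genes was 1.14 in DBA/2 mice and 0.44 in B6 mice on the log2 scale, where the median of all tested probes was -0.14 and -0.08. The change differed between the strains for 4 of the 8, Alox5, Alox5ap, Ltc4s and Alox15, all with the larger value in DBA/2 mice. Of all tested probes 13.2% differed in this way and 6.48% had the larger value in DBA/2 mice.

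**Figure D1:**
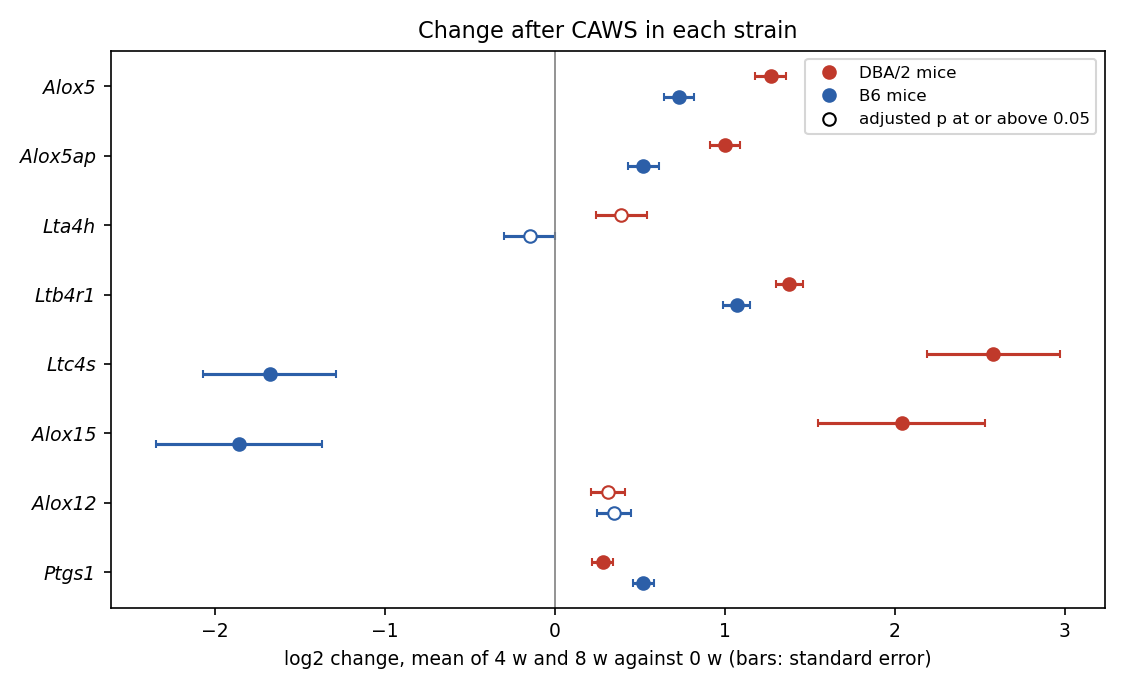
Log2 change from 0 w to the average of 4 w and 8 w for the main probe of each of the 8 tested genes, in DBA/2 mice (red) and B6 mice (blue). Points are limma estimates, bars are standard errors, and open points have an adjusted p at or above 0.05. Ltc4s and Alox15 lie on opposite sides of 0 in the strains, and Alox5, Alox5ap, Ltb4r1 and Ptgs1 lie above 0 in both.

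The dependence of these counts on background correction was large. The normexp correction of the pixel values was run with an added offset of 50, which draws ratios of dim probes toward 0. With it 3 of the 8 genes, Alox5, Alox5ap and Ltb4r1, rose in DBA/2 mice. None passed in B6 mice or in the strain difference by limma, where 6 and 2 genes had an unadjusted p below 0.05. Over all tested probes that correction left 586, 179 and 90 calls in these comparisons, against 5246, 3445 and 3029.

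Alox5 rose early in DBA/2 mice and late in B6 mice. Its normalized log2 signal in DBA/2 mice was -1.66 and -1.82 at 0 w, -1.13 and -1.23 at 2 w, -0.49 and -0.47 at 4 w, -0.37 and -0.55 at 8 w, and -0.86 and -1.03 at 9 w. Among B6 mice the levels were -1.68 and -1.81 at 0 w, -1.72 at 2 w, -1.63 and -1.71 at 4 w, -0.30 and -0.40 at 8 w, and -0.81 at 9 w. The 2 strains thus started at the same scaled signal. The B6 libraries of 0 w carry hepatocyte RNA, however, and lay on other slides than those of DBA/2 mice. At 4 w both DBA/2 samples lay above every B6 sample from 0 w to 4 w. The change at 4 w was 1.26 (SE 0.10, adjusted p = 5.31e-05 by limma) in DBA/2 mice, a 2.4-fold rise, and 0.07 (SE 0.10, adjusted p = 0.76) in B6 mice. At 8 w it was 1.28 (SE 0.10) and 1.39 (SE 0.10), with adjusted p = 2.61e-05 and 2.11e-05.

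The strain difference in the change of Alox5 was 0.54 (SE 0.13, adjusted p = 0.0224) over both weeks. Taken by week, a split made after the data had been seen, it was 1.19 at 4 w (SE 0.15, adjusted p = 0.00078) and -0.11 at 8 w (SE 0.15, adjusted p = 0.689). At 4 w itself, where hepatocyte markers were low in both strains, Alox5 was 2.29-fold higher in DBA/2 than in B6 mice (log2 1.19, SE 0.10, adjusted p = 2.18e-05), with 1.14 and 1.24 on the 2 scan days. The strains lay on different slides in that week. The overall strain difference lost its call without replicate 1 of B6 0 w (adjusted p = 0.1) or replicate 2 of DBA/2 0 w (adjusted p = 0.0985), and was -0.06 in the deposited table without scaling, where the median of all probes was -0.64.

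**Figure D2:**
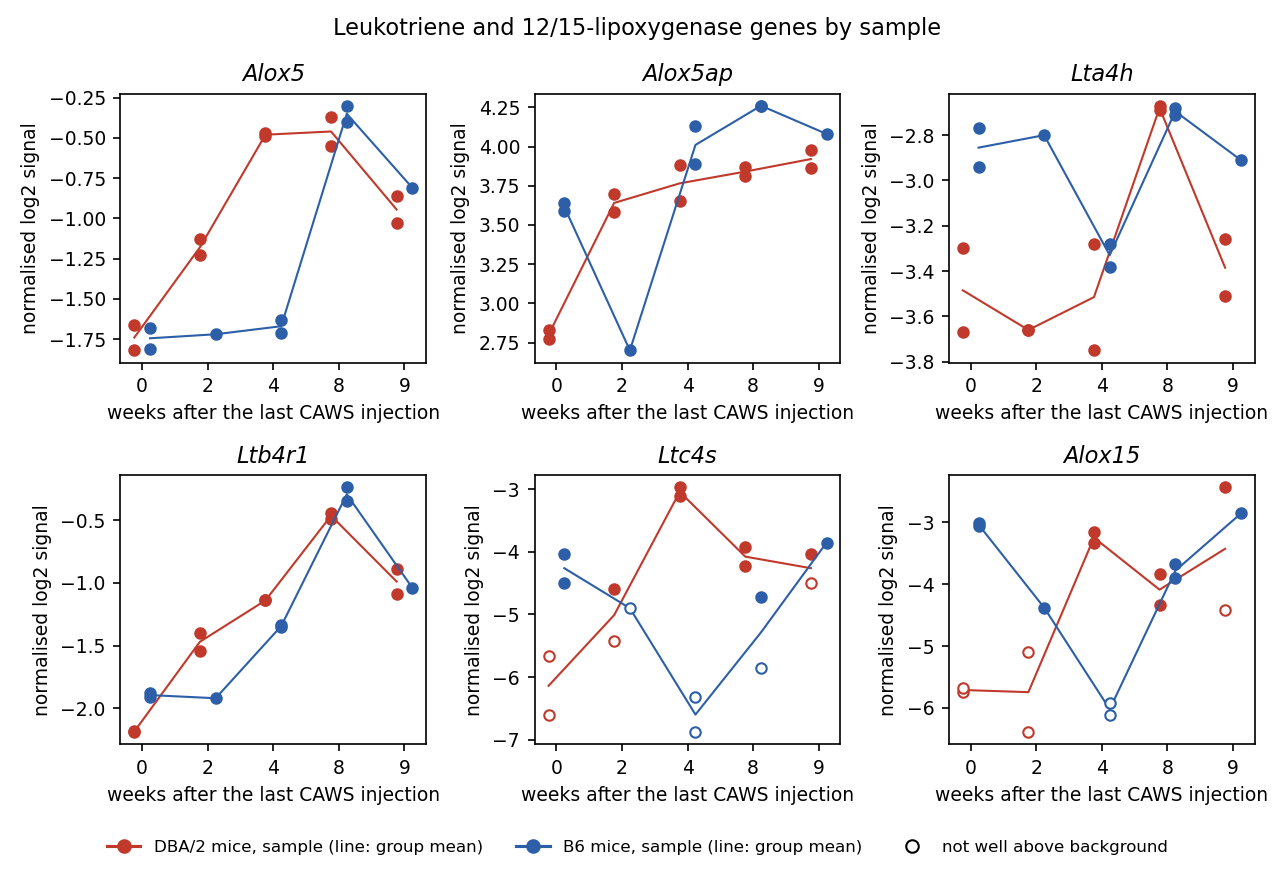
Normalized log2 signal of the main probes of 6 genes against weeks after the last CAWS injection, one point per sample, DBA/2 mice in red and B6 mice in blue, with lines through the group means; open points were not well above background. Alox5 is up by 4 w in DBA/2 mice and by 8 w in B6 mice, and Ltc4s and Alox15 are high in DBA/2 mice at 4 w when they are lowest among B6 mice.

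Alox5ap, whose protein hands arachidonic acid to the enzyme of Alox5, was already higher at 2 w in DBA/2 mice. It was 2.83 and 2.77 at 0 w, 3.70 and 3.58 at 2 w, 3.88 and 3.65 at 4 w, 3.87 and 3.81 at 8 w and 3.98 and 3.86 at 9 w in DBA/2 mice. The B6 samples gave 3.64 and 3.59 at 0 w, 2.70 at 2 w, 3.89 and 4.13 at 4 w, 4.26 and 4.26 at 8 w and 4.08 at 9 w. All later DBA/2 samples lay above both DBA/2 0 w samples, and the low B6 value at 2 w comes from 1 sample, the one with low platelet markers. Over 4 w and 8 w Alox5ap rose 2-fold in DBA/2 mice (log2 1.00, SE 0.09, adjusted p = 6.96e-05) and 1.43-fold in B6 mice (log2 0.52, SE 0.09, adjusted p = 0.00504). The difference between these changes was 0.48 (SE 0.13, adjusted p = 0.041). It lost its call in 12 of the 18 fits that left out 1 sample, with an adjusted p of up to 0.136, and was -0.12 in the deposited table without scaling.

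Ltb4r1, the high-affinity receptor for leukotriene B4 on neutrophils, rose in both strains. In DBA/2 mice it was -2.18 and -2.19 at 0 w, -1.40 and -1.54 at 2 w, -1.14 and -1.14 at 4 w, -0.44 and -0.49 at 8 w and -0.89 and -1.09 at 9 w. For B6 mice the values were -1.88 and -1.91 at 0 w, -1.92 at 2 w, -1.35 and -1.34 at 4 w, -0.35 and -0.24 at 8 w and -1.04 at 9 w. The samples at 4 w and 8 w lay above those at 0 w in each strain with no overlap. Over these weeks the rise was 2.61-fold in DBA/2 mice (log2 1.38, SE 0.08, adjusted p = 2.1e-06) and 2.1-fold in B6 mice (log2 1.07, SE 0.08, adjusted p = 1.97e-05). The strain difference of 0.31 (SE 0.11) did not pass over both weeks (adjusted p = 0.0934), but did for 4 w taken alone, with 0.50 (SE 0.12, adjusted p = 0.0297). Like Alox5, Ltb4r1 was highest at 8 w in B6 mice, and over the 18 samples the 2 genes had a Pearson r of 0.89, which is a description of samples that share their groups.

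Lta4h, which makes leukotriene B4, passed the threshold in 1 of the weekly comparisons. In DBA/2 mice it was -3.30 and -3.67 at 0 w, -3.66 and -3.66 at 2 w, -3.28 and -3.75 at 4 w, -2.69 and -2.67 at 8 w and -3.26 and -3.51 at 9 w. In B6 mice it ranged from -3.38 to -2.68 over all samples. In DBA/2 mice the samples at 8 w stood clear above those at 0 w, by 0.80 (SE 0.17, adjusted p = 0.00699). Both B6 samples at 4 w lay below both at 0 w and both at 8 w above them, by -0.47 (adjusted p = 0.0959) and 0.17 (adjusted p = 0.545), neither of which passed. The overall changes of 0.39 in DBA/2 mice (adjusted p = 0.0886) and -0.15 in B6 mice (adjusted p = 0.578) did not pass. At 0 w Lta4h was lower in DBA/2 than in B6 mice (log2 -0.63, SE 0.17, adjusted p = 0.0174), where the B6 libraries carry hepatocyte RNA.

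Markers of cells that make leukotrienes moved beside these genes. Of all probes 22.9% changed in DBA/2 mice over 4 w and 8 w and 9.8% rose, and 15% changed in B6 mice and 7.28% rose. Of 12 tested neutrophil markers 11 rose in DBA/2 mice and 11 in B6 mice, with median changes of 2.15 and 2.17. Their mean level rose from between -0.96 and -0.94 at 0 w to between 0.38 and 0.45 at 4 w and between 1.79 and 1.93 at 8 w in DBA/2 mice. In B6 mice it went from between -2.28 and -2.22 at 0 w to between -1.18 and -1.17 at 4 w and between 1.01 and 1.04 at 8 w. Elane was not well above background in any sample. Of 9 monocyte markers 7 rose in DBA/2 mice, while 3 rose and 2 fell in B6 mice. The mean level of these 9 went from between -2.01 and -1.78 at 0 w to between -0.55 and -0.51 at 4 w in DBA/2 mice, and from between -1.71 and -1.45 to between -2.09 and -1.99 in B6 mice. At 4 w 8 of 9 monocyte and 11 of 12 neutrophil markers were higher in DBA/2 than in B6 mice, against 19.1% of all probes. Their medians were 1.29 and 1.2 with none lower, and Alox5 was higher as well. By mean level the neutrophil list was also higher in DBA/2 mice at 0 w and 8 w. The monocyte list was lower there at 0 w and higher at 8 w. The strain difference of Alox5 did not pass at 0 w or 8 w. Both lists were higher at 8 w than at 0 w in both strains. Whether more cells of a type or more RNA per cell lies behind a change cannot be told apart in blood RNA, and the part of these cell types in the changes was not tested.

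**Figure D3:**
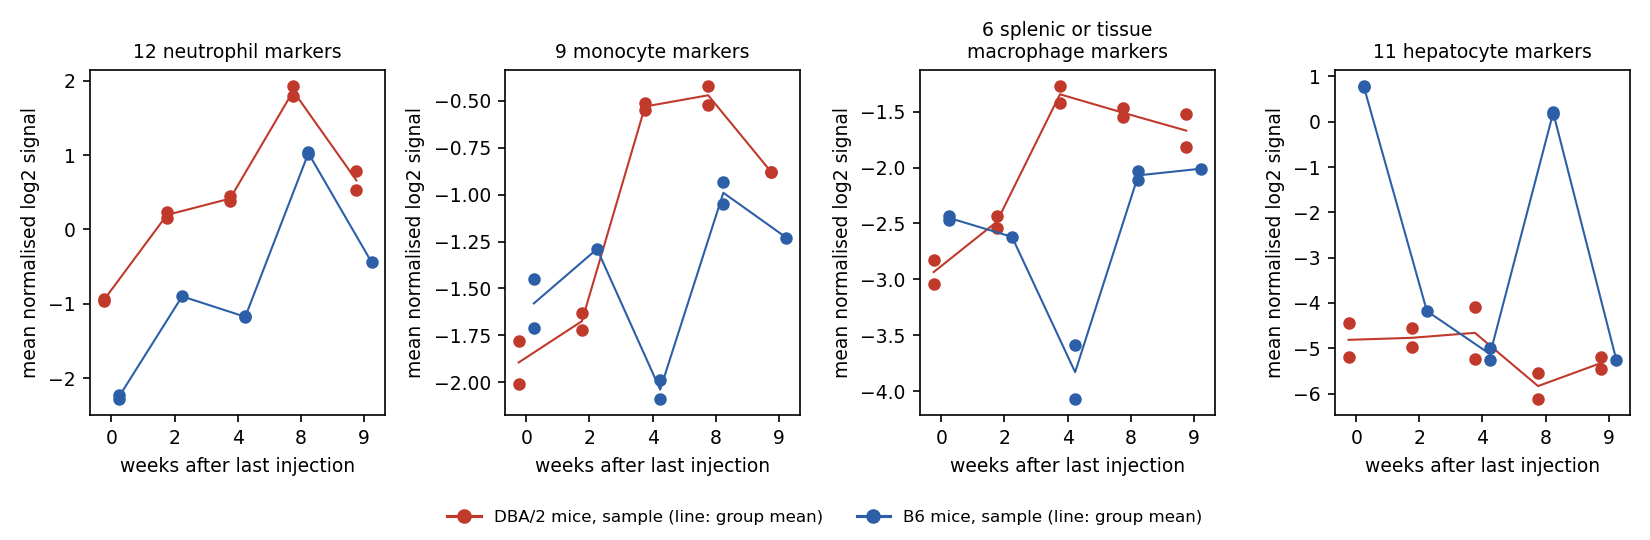
Mean normalized log2 signal over the probes of 4 marker lists against weeks after the last CAWS injection, one point per sample, DBA/2 mice in red and B6 mice in blue, with lines through the group means. Neutrophil markers are highest at 8 w in both strains, tissue macrophage markers are at 4 w lowest in B6 mice and highest in the DBA/2 strain, and hepatocyte markers are high in B6 mice at 0 w and 8 w.

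The stretch before the start of transcription is shown for Alox5 and Ltb4r1, whose levels ran together. These are the 150 bases before the RefSeq start on GRCm38.p6, at chr6:116461179-116461328 on the minus strand and chr14:55765812-55765961 on the plus strand, written 5′ to 3′. Capitals mark the GC box GGGCGG, bound by Sp1, and the letters GAGGAA, a core of sites of the myeloid factor PU.1, on either strand.
Alox5: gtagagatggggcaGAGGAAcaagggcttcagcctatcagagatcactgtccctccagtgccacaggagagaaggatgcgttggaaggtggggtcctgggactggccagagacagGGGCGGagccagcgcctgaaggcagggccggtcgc
Ltb4r1: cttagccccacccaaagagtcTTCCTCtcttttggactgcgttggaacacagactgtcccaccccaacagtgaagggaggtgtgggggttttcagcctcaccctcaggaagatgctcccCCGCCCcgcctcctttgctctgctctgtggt
Each stretch holds both motifs once, and the motifs do not overlap. In the 250 bases before the start, GGGCGG or its complement lies in 32.7% of 32851 mouse promoters and GAGGAA or its complement in 23.3%. Of the 10 genes 8 have an entry, 5 with the GC box and 7 with the PU.1 core. A match of such short letters is a description and not a site of binding.

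Ltc4s and Alox15 went opposite ways in the strains. Ltc4s, the synthase of the cysteinyl leukotrienes, was -5.67 and -6.61 at 0 w, -4.60 and -5.42 at 2 w, -2.97 and -3.11 at 4 w, -3.92 and -4.23 at 8 w and -4.49 and -4.03 at 9 w in DBA/2 mice. B6 mice had -4.49 and -4.03 at 0 w, -4.90 at 2 w, -6.32 and -6.88 at 4 w, -4.72 and -5.85 at 8 w and -3.85 at 9 w. It was well above background in 10 of the 18 samples, in neither sample of DBA/2 0 w or B6 4 w, and in both of DBA/2 4 w. At 4 w the 2 DBA/2 samples were the highest of all 18, while the 2 B6 samples lay among the 3 lowest, with replicate 2 of DBA/2 0 w between them.

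Where a group was not well above background, its level is only a bound, and folds are given as at least the brighter mean against the dimmer group at the higher of its own signal and the lowest signal called well above background on each array. By this reckoning Ltc4s rose at least 3.54-fold from 0 w to 4 w in DBA/2 mice (adjusted p = 0.00177) and fell at least 1.42-fold in B6 mice (adjusted p = 0.00778). Between the strains, Ltc4s in week 4 stood at least 3.31-fold higher in DBA/2 mice (adjusted p = 0.000242). The fitted change over 4 w and 8 w was 2.58 in DBA/2 mice (SE 0.39, adjusted p = 0.00122) and -1.68 in B6 mice (SE 0.39, adjusted p = 0.0176). The strain difference was 4.26 (SE 0.55, adjusted p = 0.00102), or at least 3.27-fold with the 1 dim sample of B6 8 w also set to its floor, with 3.25 on the first scan day and 5.27 on the second. Among the B6 samples with low hepatocyte markers Ltc4s was also lower in week 4 than in weeks 2 and 9, of which only the week 9 sample was well above background.

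Alox15 followed the same course. In DBA/2 mice it was -5.74 and -5.68 at 0 w, -6.39 and -5.10 at 2 w, -3.16 and -3.34 at 4 w, -3.84 and -4.34 at 8 w and -4.42 and -2.44 at 9 w. The B6 values were -3.01 and -3.07 at 0 w, -4.38 at 2 w, -5.92 and -6.12 at 4 w, -3.67 and -3.90 at 8 w and -2.86 at 9 w. It was well above background in 11 of the 18 samples, in no sample of DBA/2 0 w, DBA/2 2 w or B6 4 w and in 1 of 2 at DBA/2 9 w. The DBA/2 samples at 4 w and 8 w lay above those at 0 w and 2 w, and both B6 4 w samples lay below all other B6 samples, those of weeks 2 and 9 with low hepatocyte markers included.

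From 0 w to 4 w Alox15 rose at least 3.06-fold in DBA/2 mice (adjusted p = 0.018) and fell at least 3.3-fold in B6 mice (adjusted p = 0.00762). At 0 w it was at least 3.53-fold lower in DBA/2 than in B6 mice (adjusted p = 0.00559), and at 4 w at least 2.86-fold higher (adjusted p = 0.00457). The strain difference over 4 w and 8 w was 3.90 (SE 0.70, adjusted p = 0.00601), or at least 5.38-fold, with 4.02 and 3.79 on the 2 scan days. By week it came to 5.44 for 4 w, or at least 10.1-fold, with an adjusted p = 0.00215 by limma. For 8 w it came to 2.36, or at least 2.86-fold, with an adjusted p = 0.0757. The split was made after the data had been seen. Over the 18 samples the r of Alox15 and Ltc4s was 0.74.

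Both genes are dim, and their values depend on how the background is handled. The normexp values include the added offset of 50, whose part in them was not tested. With normexp correction the strain difference was 1.10 for Ltc4s (SE 0.55, adjusted p = 0.968) and 1.10 for Alox15 (SE 0.39, adjusted p = 0.643), where the median of all probes was 0.22. The difference between DBA/2 and B6 mice at 4 w was then 0.08 for Ltc4s and -0.15 for Alox15, a change of sign for the second, where the median of all probes was -0.53. Among single samples, leaving out either B6 0 w sample or B6 4 w replicate 2 ended the call for the fall of Ltc4s in B6 mice (adjusted p from 0.0512 to 0.138). The fall of Alox15 in B6 mice lost its call without any 1 of the 6 B6 samples at 0 w, 4 w and 8 w (adjusted p from 0.0611 to 0.162), and its rise in DBA/2 mice without either DBA/2 0 w sample (adjusted p = 0.0883 and 0.0821). The strain difference of both genes passed without each of the 18 samples in turn, with an adjusted p of at most 0.00768 for Ltc4s and 0.029 for Alox15.

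Markers of macrophages and of some other cells moved beside Ltc4s and Alox15. Of 7 markers of splenic or tissue macrophages 6 were tested, and Vcam1 was not well above background in any sample. In DBA/2 mice 5 of the 6 rose over 4 w and 8 w, while in B6 mice 2 rose and 3 fell, and the change differed between the strains for 4. These counts and those of the next lists stand against 22.9% and 15% of all probes changed in the strains, and 13.2% that differed. Their mean level was between -3.04 and -2.83 at 0 w and between -1.42 and -1.27 at 4 w in DBA/2 mice. In B6 mice it was between -2.47 and -2.43 at 0 w and between -4.07 and -3.59 at 4 w. Both B6 samples at 4 w were the lowest of all 18 for this list, and both DBA/2 samples at 4 w the highest. Of 8 eosinophil markers 5 were tested, Ear2 and Ear4 have no probe so named, and Epx was not well above background in any sample. Among these, 2 rose and 1 fell in DBA/2 mice and 1 rose and 1 fell in B6 mice. Their mean level was between -3.77 and -3.70 in DBA/2 mice at both 0 w and 4 w. It was between -2.69 and -2.65 there at 8 w. In B6 mice it was between -4.29 and -4.11 at 0 w and between -4.80 and -4.42 at 4 w. At 8 w it was between -4.12 and -4.08 in B6 mice. Both B6 samples at 4 w were the lowest of all 18 for this list, and both DBA/2 samples at 8 w the highest. Of 8 tested basophil and mast cell markers 4 rose in DBA/2 mice and 2 rose and 2 fell in B6 mice, with Kit not well above background in any sample. The mean level of these 8 was between -2.63 and -2.60 at 0 w in DBA/2 mice. At 4 w it was between -1.77 and -1.75 there, the highest of all 18 samples. In B6 mice it was between -3.26 and -2.81 at 0 w and between -3.18 and -3.07 at 4 w. Of 5 NK cell markers 4 rose in DBA/2 mice and 5 fell in B6 mice. The part of these cells in the changes of Ltc4s and Alox15 was not tested.

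Alox12 and Ptgs1, the members carried by platelets, ran with each other. Alox12 was 3.05 and 3.01 at 0 w, 3.68 and 3.53 at 2 w, 3.50 and 3.42 at 4 w, 3.33 and 3.11 at 8 w and 3.73 and 3.48 at 9 w in DBA/2 mice. In B6 mice it was 4.05 and 3.90 at 0 w, 2.38 at 2 w, 4.40 and 4.28 at 4 w, 4.39 and 4.23 at 8 w and 4.16 at 9 w. Except for the B6 sample at 2 w, every B6 sample lay above every DBA/2 sample. Ptgs1 was 0.63 and 0.70 at 0 w, 1.37 and 1.39 at 2 w, 1.20 and 1.22 at 4 w, 0.66 and 0.70 at 8 w and 1.34 and 1.30 at 9 w in DBA/2 mice. In B6 mice it was 1.26 and 1.22 at 0 w, -0.03 at 2 w, 1.80 and 1.85 at 4 w, 1.71 and 1.66 at 8 w and 1.57 at 9 w. The course of Ptgs1 in DBA/2 mice was up at 2 w and back at its 0 w level at 8 w. Over the 18 samples the r of the 2 genes was 0.94. Alox5ap had an r of 0.80 with Alox12 and 0.79 with Ptgs1, as high as with Ltb4r1, and above its 0.61 with Alox5.

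The signals of both genes were lower in DBA/2 than in B6 mice at each week with 2 samples in both strains. In weeks 0, 4 and 8 the difference for Alox12 was -0.95, -0.88 and -1.09 (SE 0.12 for each, adjusted p = 0.000285, 0.000429 and 0.000152), a ratio of 1.93, 1.84 and 2.13. For Ptgs1 it was -0.57, -0.61 and -1.01 (SE 0.07 for each, adjusted p = 0.000169, 0.000102 and 6.66e-06). In the deposited table without scaling the difference of Ptgs1 changed sign at 0 w and 4 w, to 0.25 and 0.19, where the median of all probes was 0.89 and 0.86. Ptgs1 rose over 4 w and 8 w by 0.28 in DBA/2 mice (SE 0.06, adjusted p = 0.00733) and by 0.52 in B6 mice (SE 0.06, adjusted p = 0.00036), with a strain difference that did not pass over both weeks (log2 -0.24, adjusted p = 0.0958) and did for 8 w taken alone (log2 -0.43, SE 0.10, adjusted p = 0.0127). The rise in DBA/2 mice lost its call without replicate 1 of DBA/2 0 w (adjusted p = 0.0752). For Alox12 the changes of 0.31 and 0.35 had adjusted p = 0.0595 and 0.0516, and the strain difference was -0.04 (SE 0.15). With replicate number, which is also scan day, as a block, both changes of Alox12 passed.

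**Figure D4:**
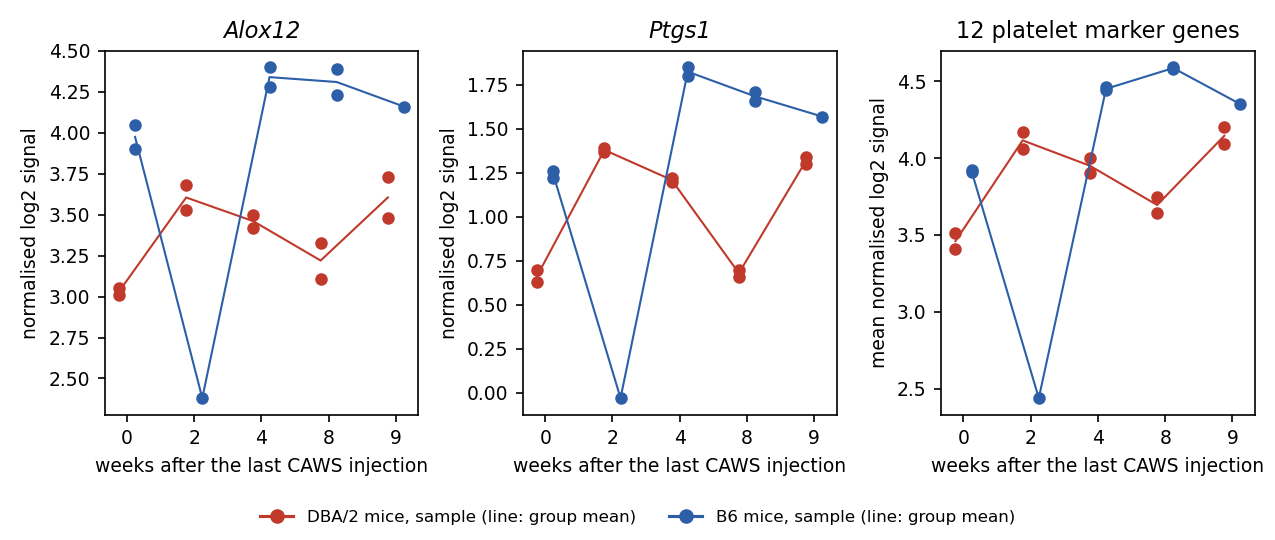
Normalized log2 signal of Alox12 and Ptgs1 and the mean over 12 platelet marker genes against weeks after the last CAWS injection, one point per sample, DBA/2 mice in red and B6 mice in blue, with lines through the group means. The B6 sample at 2 w is the lowest in all 3 panels.

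Platelet markers moved beside both. All 12 were lower in the B6 sample at 2 w than at 0 w, with a median change of -1.47, where Alox12 changed by -1.59 (SE 0.15, adjusted p = 9.16e-05) and Ptgs1 by -1.27 (SE 0.08, adjusted p = 1.54e-05). These values rest on 1 sample, which is assumed to vary like the others. Over 4 w and 8 w 8 of the 12 markers rose in DBA/2 mice and 10 in B6 mice, against 9.8% and 7.28% of all probes, with medians of 0.34 and 0.57. Between the strains 8 of the 12 were lower in DBA/2 mice at 0 w, 7 at 4 w and 11 at 8 w, with medians of -0.45, -0.47 and -0.82 and none higher. Of all probes 15.4%, 13% and 15% were lower in DBA/2 mice in these weeks. Their mean level was between 3.41 and 3.51 at 0 w and between 3.64 and 4.2 later in DBA/2 mice, and between 3.91 and 4.59 in B6 mice at all weeks but 2 w. The part of platelet number in the values of Alox12 and Ptgs1 was not tested.

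The promoters of this pair are shown for comparison, since the genes ran together most closely. The stretches of 150 bases before the RefSeq start on GRCm38.p6 lie at chr11:70255371-70255520 on the minus strand and chr2:36230276-36230425 on the plus strand, with the same motifs in capitals.
Alox12: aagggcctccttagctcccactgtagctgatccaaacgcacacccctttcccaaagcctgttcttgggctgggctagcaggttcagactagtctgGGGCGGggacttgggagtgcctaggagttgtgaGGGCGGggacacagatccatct
Ptgs1: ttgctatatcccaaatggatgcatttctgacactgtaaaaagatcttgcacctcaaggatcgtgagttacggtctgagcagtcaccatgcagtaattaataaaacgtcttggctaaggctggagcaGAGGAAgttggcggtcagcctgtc
The stretch of Alox12 holds 2 GC boxes and that of Ptgs1 the letters GAGGAA once, so that the pair shares neither motif within these bases. In the 250 bases before the start both hold GAGGAA. The letters AGATAA, of the kind bound by GATA factors of megakaryocytes, or their complement, lie in 9.99% of all promoters and in 0 of the 8 of these genes.

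Ptgs2, the inducible cyclooxygenase, and Ptges were not well above background in any of the 18 samples. The main probe of Ptgs2 ranged from -7.69 to -5.83 and that of Ptges from -7.77 to -6.14, below the lowest signals called well above background, which were between -5.76 and -3.94 across arrays. No fold is given for them. The 2 samples of Ptgs2 at DBA/2 4 w, -5.83 and -5.87, were the highest of its main probe but still not called. The other Ptgs2 probe gave -7.02 and -6.08 there and was not called in any sample either.

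On mm8 the main probe lies for Alox5 at chr6:116375927-116375986, for Alox5ap at chr5:149596619-149596678, for Lta4h at chr10:92904358-92904755, for Ltb4r1 at chr14:54722409-54722468, for Ltc4s at chr11:50080443-50080502, for Alox15 at chr11:70161808-70162032, for Alox12 at chr11:70058408-70058467 and for Ptgs1 at chr2:36074133-36074192. Alox5 has 2 further probes. The second gave 1.21 in DBA/2 mice (SE 0.09, adjusted p = 3.13e-05), 0.86 in B6 mice (SE 0.09, adjusted p = 0.000383) and a strain difference of 0.36 that did not pass (adjusted p = 0.105). The last one, dimmer and well above background in 15 samples, gave 1.62, 0.52 and 1.10, of which the first passed (adjusted p = 0.00201). At 4 w all 3 probes of Alox5 were higher in DBA/2 than in B6 mice, by 1.19, 1.00 and 1.28, each past the threshold. The second Alox12 probe passed where the main probe did not, with 0.29 in DBA/2 mice (adjusted p = 0.0171) and 0.41 in B6 mice (adjusted p = 0.00464), and was lower in DBA/2 mice at 0 w, 4 w and 8 w, with differences of -1.12, -1.04 and -1.43. Another Alox12 probe was not well above background in any sample.

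By week, 5 of the 8 genes changed in DBA/2 mice at 2 w, against 15.7% of all probes, and all 5 rose, against 7.9%. They were Alox5, Alox5ap, Ltb4r1, Alox12 and Ptgs1. At 4 w 7 rose, all but Lta4h, where 14.8% of all probes changed and 7.58% rose. At 8 w 5 rose, with Lta4h, Ltc4s, Alox5, Alox5ap and Ltb4r1, where 24% of all probes changed and 10% rose. At 9 w 7 rose, again all but Lta4h, where 27.7% changed and 13.4% rose. Both DBA/2 samples of 9 w lay on other slides than those of 0 w to 8 w. Week and slide cannot be told apart in the 9 w calls. The 4 weeks share the same 2 DBA/2 samples at 0 w. The set that had risen thus grew from 2 w to 4 w by Ltc4s and Alox15, while Ptgs1, Alox12 and Alox15 did not pass at 8 w and passed again at 9 w, and Lta4h passed at 8 w alone. For Alox15 at 9 w only replicate 2 was well above background, with a change of 3.24 against 1.31 for replicate 1. The same held for Ltc4s, with 2.58 against 1.17 and a rise of at least 1.52-fold. The array of that replicate 2 had 1187 outlier spots, the most of any array, though none was a spot of Alox15 or Ltc4s.

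In B6 mice 3 genes changed at 2 w, Alox5ap, Alox12 and Ptgs1, where 13% of all probes changed, and all 3 fell, against 7.74%. At 4 w 5 changed, against 15.7%, of which Alox5ap, Ltb4r1 and Ptgs1 rose, against 6.02%, and Ltc4s and Alox15 fell, against 9.66%. At 8 w 4 changed, against 21.2%, and Alox5, Alox5ap, Ltb4r1 and Ptgs1 rose, against 11%. At 9 w 3 changed, against 9.34%, and Alox5, Ltb4r1 and Ptgs1 rose, against 5.48%. Ltb4r1 and Ptgs1 rose in each of the last 3 of these weeks, and Alox5 in the last 2.

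Between the strains, 7 of the 8 genes differed at 0 w, against 32.7% of all probes, and all 7 were lower in DBA/2 mice, against 15.4%. They were all but Alox5, with differences from -0.29 for Ltb4r1 to -2.67 for Alox15. The deposited table without scaling turned the sign for Alox5ap (0.01), Lta4h (0.19), Ltb4r1 (0.53) and Ptgs1 (0.25), where the median of all probes was 0.89, and the B6 libraries of this week carry hepatocyte RNA. At 4 w 5 differed, against 32.1%. Alox5, Ltc4s and Alox15 were higher in DBA/2 mice, against 19.1%, and Alox12 and Ptgs1 lower, against 13%. At 8 w 3 differed, against 25.4%, and Alox5ap, Alox12 and Ptgs1 were lower in DBA/2 mice, against 15%. The differences of Ltc4s and Alox15 then did not pass, with 1.21 (adjusted p = 0.079) and -0.31 (adjusted p = 0.743), though both DBA/2 samples of Ltc4s lay above both B6 samples. Its strain difference in the change up to 8 w passed (at least 2.13-fold, adjusted p = 0.00924). Each member past the threshold in the 12 comparisons that both scan days could give had the same sign on both days. Since each day holds 1 of the samples of a group that made the call, this is a description and not a check.

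Other genes of the pathway were described from 4 lists of 57 genes, of which 43 were tested. In DBA/2 mice 15 rose and 6 fell over 4 w and 8 w, with a median of 0.02, where all tested probes had -0.14. In B6 mice 10 rose and 5 fell, with a median of -0.14 against -0.08. The 10 include Ptger3, which was not well above background in any B6 sample. Among all tested probes 22.9% changed in DBA/2 mice and 15% in B6 mice. The change differed between the strains for 7 of the 43, against 13.2% of all probes. Several of these genes were dim, and where samples of the lower group were not well above background the fold is again given as at least, with those samples at their floor. Among 13 tested leukotriene and lipoxygenase genes, 9 rose and 1 fell in DBA/2 mice, with a median of 0.53, and 4 rose and 1 fell in B6 mice, with 0.17. Cysltr1, a receptor for the cysteinyl leukotrienes, was well above background in 4 of the 18 samples and in neither at DBA/2 0 w, and rose at least 1.48-fold in DBA/2 mice (adjusted p = 0.0189). Ptgr1, which inactivates leukotriene B4, rose 2.45-fold in DBA/2 mice (log2 1.29, SE 0.19, adjusted p = 0.00112). Dpep2, a dipeptidase that can cleave leukotriene D4, was not well above background in any 0 w sample of either strain, and rose at least 1.18-fold in DBA/2 mice (adjusted p = 0.000376). Its change in B6 mice, where 4 w was not above background either, passed (adjusted p = 0.0238) but has no bound. The strain differences of these 3 genes did not pass (adjusted p = 0.237, 0.083 and 0.096). At 4 w Cysltr1 was at least 1.26-fold, Ptgr1 at least 3.55-fold and Dpep2 at least 1.25-fold higher in DBA/2 than in B6 mice. In this list 1 gene passed in the strain difference, Cotl1, an actin-binding protein that also binds the enzyme of Alox5, with 0.46 (SE 0.08, adjusted p = 0.00772), named after its values were seen.

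Among 12 tested genes of prostanoid synthesis and breakdown, 2 rose and 1 fell in DBA/2 mice and 2 rose and 3 fell in B6 mice, to be read against the same 22.9% and 15% of all probes. Hpgd, the dehydrogenase that inactivates prostaglandins, was not well above background in either sample of DBA/2 0 w. It rose at least 1.91-fold in DBA/2 mice (adjusted p = 0.000712) and fell in B6 mice (log2 -0.73, SE 0.16, adjusted p = 0.013), a strain difference of at least 3.17-fold (adjusted p = 0.000657). Between the strains Hpgd was lower in DBA/2 mice, at least 6.25-fold at 0 w (adjusted p = 3.6e-06) and at least 1.96-fold at 4 w (adjusted p = 0.0011). Abcc4, a transporter that can export prostaglandins, rose in B6 mice (log2 0.78, adjusted p = 0.00143), with a strain difference of -0.68 (adjusted p = 0.0207). Ptges3, a cytosolic synthase of prostaglandin E2 and a chaperone partner, had a strain difference of 0.40 (adjusted p = 0.048).

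Among 7 tested receptors, 2 rose and 1 fell in each strain, against 22.9% and 15% of all probes changed. Ptger4, a receptor for prostaglandin E2, had changes of 0.81 in DBA/2 mice and -0.62 in B6 mice that did not pass, and a strain difference that did (adjusted p = 0.0434), of at least 1.71-fold. It was not well above background in either B6 sample at 4 w, where it was at least 2.6-fold higher in DBA/2 mice (adjusted p = 0.00054). Ptger3, another receptor for prostaglandin E2, was not well above background in any B6 sample, so that its fitted change there is among background signals and is not given. It is nonetheless 1 of the 2 receptors counted as rising in B6 mice. It was at least 2.57-fold higher in DBA/2 mice at 0 w (adjusted p = 0.000557) and at least 2.43-fold at 4 w (adjusted p = 0.0303). Pparg, a nuclear receptor that binds prostaglandin derivatives, had a strain difference of 0.45 (adjusted p = 0.0172). Among 11 tested phospholipases, 2 rose and 3 fell in DBA/2 mice and 2 rose in B6 mice. Pla2g2d, a secreted phospholipase, fell in DBA/2 mice (log2 -0.92, SE 0.10, adjusted p = 0.000206), with a strain difference of -0.72 (adjusted p = 0.0108). Pla2g4b, a cytosolic one, fell there too (log2 -0.83, adjusted p = 0.0317), and Pla2g15, a lysosomal phospholipase, rose (log2 0.52, adjusted p = 0.0197).

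**Figure D5:**
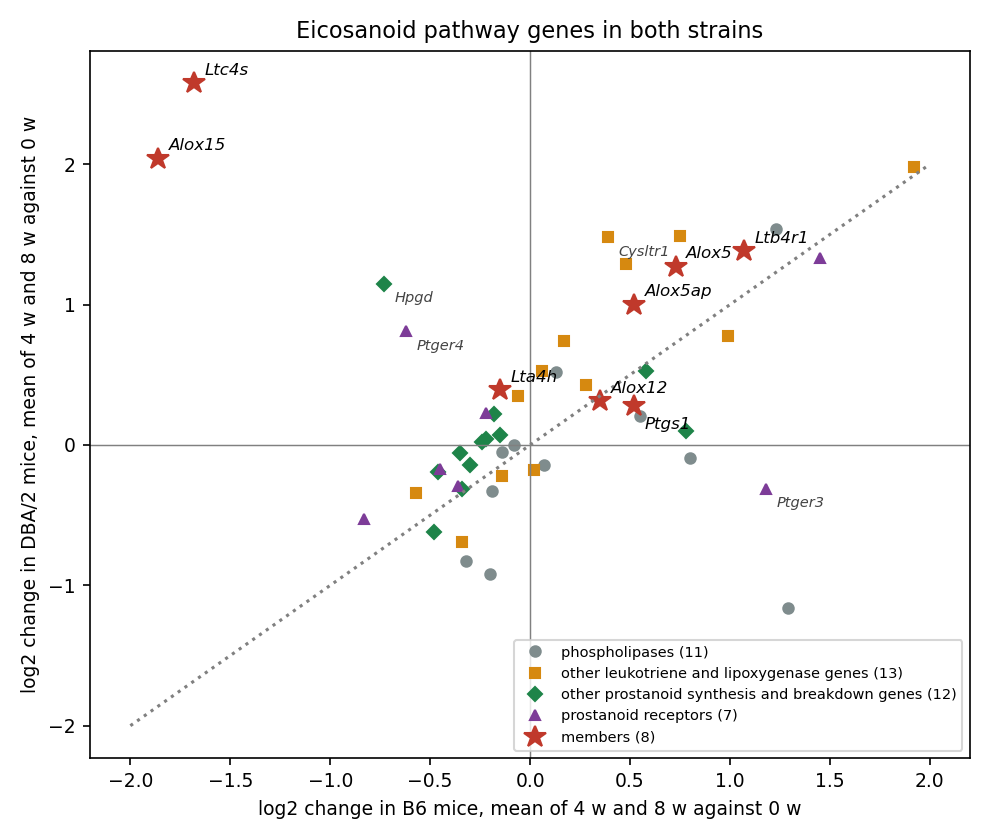
Log2 change from 0 w to the average of 4 w and 8 w in B6 mice (horizontal) and DBA/2 mice (vertical) for the 8 tested members (stars) and 43 other genes of the eicosanoid pathway by list; the dotted line marks equal change. Ltc4s and Alox15, with Hpgd and Ptger4 nearer the center, lie above 0 in DBA/2 mice and below 0 in B6 mice. Fitted values are drawn also where a group was not well above background, as for these 4 genes, Cysltr1 and Ptger3.

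The genes whose main probes ran most like each member over the 18 samples, among 15739 genes, were named as a description, since all samples share their groups and scaling. For Alox5 they were Dhrs7, Pygl and Rab32, with r from 0.960 to 0.967. For Alox5ap they were Fcer1g, Ostm1 and Aldoa (0.952 to 0.955), for Lta4h Hsd17b10, Gpr160 and Cdk2ap1 (0.908 to 0.944), and for Ltb4r1 Ifitm7, Ifitm2 and Tmem50b (0.956 to 0.963). For Ltc4s they were Fcna, C1qa and Fabp7, with 0.885 to 0.928, and for Alox15 Ccl24, Plxnb2 and Acly, with 0.869 to 0.883. For Alox12 they were Pdlim1, Hacd4 and Cox5a (0.977 to 0.983), and for Ptgs1 the histone genes H2bc12, H2bc14 and H2bu1-ps (0.975 to 0.984). The closest matches were those of the platelet-carried pair, and the loosest those of the dim probes of Ltc4s and Alox15.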

How the data were processed

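Leukocyte RNA of 18 samples was measured on 19 Agilent single-color arrays (G4122F), with B6 0 w replicate 2 on 2 arrays that were averaged. The authors deposited the output of Agilent Feature Extraction 9.5.3.1, per the labels, in which the processed signal is a background-subtracted, detrended intensity that is not normalized between arrays. The value table that the authors deposited holds the same intensity averaged per probe. The deposited calls for outliers, saturation and signals well above background are yes or no flags of the software.

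Outlier spots were left out, spots of a probe averaged in log2, and each array's 75th percentile was subtracted, taken over the 11536 probes that every array called well above background. Probes so called in 2 or more of the 18 samples, 22939 in all, were fitted with limma 3.58.1 (R 4.3.3), with a mean per group, 8 residual degrees of freedom and Benjamini-Hochberg adjustment at 0.05. The p-values rest on 1 or 2 samples a group. Named members were all 10 genes. From each pathway list up to 3 genes were named, those with the largest strain difference among genes past the threshold in any of the 3 overall comparisons, and for each member the 3 genes most like it. Members, lists and comparisons were chosen with earlier results of these data known, and the strain difference at single weeks after the values were seen. Replicate numbers coincide with scan days. The procedure was tested on simulated data. Promoters are from RefSeq (GRCm38.p6). Alternatives are listed after the results, and the number of arrays limits the precision.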

Additional observations from a re-analysis of the deposited data

Results flagged for a closer look

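The changes of 4 genes over 4 w and 8 w against 0 w differed between DBA/2 and B6 mice by limma's test of that difference. It was 4.26 for Ltc4s and 3.90 for Alox15 on the log2 scale, with opposite directions in the strains, both resting on groups not well above background at DBA/2 0 w and B6 4 w. It was 0.54 for Alox5, which comes from 4 w, and 0.48 for Alox5ap, which is near the threshold. Groups of 1 or 2 samples were too small to test single samples as outliers.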

How the results depend on the processing

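The number of members past the threshold was 6 in DBA/2 mice, 6 in B6 mice and 4 in the strain difference, and 24, 15 and 15 summed over the weeks in DBA/2 mice, in B6 mice and between the strains. With normexp background correction these were 3, 0, 0, 9, 4 and 5 (5, 6, 2, 19, 13 and 10 at an unadjusted p below 0.05). Counting changes of 2-fold or more in place of the test gave 4, 3, 2, 14, 8 and 8. Without a filter on dim probes the strain difference kept 2 members, and with the slide as a random block it had 7. The block of replicate number gave 7, 7, 4, 24, 18 and 15, and the member gained in DBA/2 and in B6 mice was Alox12. Leaving out 1 sample gave from 4 to 7, 3 to 7, 2 to 5, 16 to 25, 12 to 15 and 12 to 15 calls, where leaving out the lone B6 sample of week 2 or 9 gave no weekly value. The lowest DBA/2 count, 4, came without DBA/2 0 w replicate 1, and its lowest weekly sum, 16, without replicate 2. The lowest B6 count, 3, came without B6 0 w replicate 2, and the lowest strain count, 2, without B6 0 w replicate 1 or DBA/2 0 w replicate 2. Without scaling, the deposited table turned the strain difference of Alox5 (-0.06), Alox5ap (-0.12), Lta4h (-0.06) and Ltb4r1 (-0.29) and the B6 change of Lta4h (0.38), as its all-probe median moved by up to 0.98. The strain difference of Alox12, -0.04, was 0.00039 with the 75th percentile over all probes, 0.07 at 4 w alone, and 0.0022, 0.04 and 0.02 without B6 8 w replicate 1, B6 0 w replicate 2 or DBA/2 8 w replicate 2. That of Alox5 was -0.11 at 8 w alone. All other alternatives kept these counts within 1.5 times, and of the 70 calls of members over 14 comparisons 8 changed sign in any alternative. Over all probes, 2248 rose and 2998 fell in DBA/2 mice, and 1671 and 1774 in B6 mice, against 2931 and 1723, and 2063 and 1096, with the 75th percentile over all probes, and 1551 and 3206, and 9045 and 329, in the deposited table without scaling. Same-numbered samples, which also share a scan day, deviated together with correlations from 0.0167 to 0.4091 (median 0.0910, 28 pairs of groups), so that the numbers were not taken as pairs. Signal over background limits Ltc4s and Alox15.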
